A study of Mus musculus with 4 samples.

Results

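The genes of catecholamine synthesis, storage and breakdown were followed in N2a cells, a mouse neuroblastoma line, cultured with or without manganese. The 9 genes were fixed by symbol, and each had 1 row among the 22287 genes of the mRNA table: Th, Ddc, Dbh, Gch1, Pts, Spr, Slc18a2, Slc6a2 and Maoa. The N2a-Mn group is N2a cells given 300 µM manganese for 48 h, and the N2a group is the same line without manganese. The titles alone give this division, since the treatment text of all samples, those titled N2a included, describes the culture with manganese, and the direction of every ratio rests on the titles. The labels give the strain of both as C57BL/6, which may not be the strain of origin of the line, and name no form of the manganese salt. Each group had 1 library of total RNA from which ribosomal RNA had been removed, with 14606979 reads assigned to genes in the N2a-Mn library and 13972452 in the N2a library. The series also held 2 small RNA libraries, which are not used here. With 1 library per group there is no estimate of spread, so no difference below has a replicate check or a test, and a ratio describes this pair of libraries only. Brackets give 95% intervals for counting error alone, since PCR copies of one molecule can be counted more than once. In bulk RNA, fewer cells that use a gene and less RNA per cell cannot be told apart.

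Catecholamines are made from tyrosine. Tyrosine hydroxylase (Th) makes DOPA in the rate-limiting step, DOPA decarboxylase (Ddc) makes dopamine, and dopamine beta-hydroxylase (Dbh) makes noradrenaline inside vesicles. Th needs the cofactor tetrahydrobiopterin, which GTP cyclohydrolase 1 (Gch1), 6-pyruvoyl-tetrahydropterin synthase (Pts) and sepiapterin reductase (Spr) make from GTP in that order. The vesicular monoamine transporter Slc18a2 loads dopamine and noradrenaline into vesicles, the plasma membrane transporter Slc6a2 takes noradrenaline back up, and monoamine oxidase A (Maoa) breaks the amines down on the outer mitochondrial membrane. Sympathetic neurons and chromaffin cells, from whose lineage neuroblastoma arises, make catecholamines.

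The N2a-Mn library held more reads of Slc18a2 and Th and fewer of Spr than the N2a library. Slc18a2 was at 2.69 times its N2a level [1.72 to 4.44] and Th at 1.88 times [1.45 to 2.46], whereas Spr was 1.81-fold lower [1.59 to 2.06]. Gch1, the most abundant of the 9, was at 1.21 times its N2a level, and the intervals of Dbh and Pts included no change. Ddc, Maoa and Slc6a2 had 10 reads or fewer over both libraries.

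The promoters of the members with the highest and the lowest ratio, of Th and of the most abundant member Gch1 are shown so that those of the higher and the lower genes can be read side by side. They come from RefSeq (GRCm38.p6), 5′ to 3′ on the strand of the gene, from 250 bases before its start to 20 after. Capitals mark matches to TGACGTCA, the palindromic cAMP response element, to its shorter core TGACG, or to the AP-1 motif TGANTCA. The windows are chr19:59260628-59260897 on the plus strand for Slc18a2, chr7:142899976-142900245 on the minus strand for Th, chr14:47189394-47189663 on the minus strand for Gch1 and chr6:85137745-85138014 on the minus strand for Spr.
Slc18a2: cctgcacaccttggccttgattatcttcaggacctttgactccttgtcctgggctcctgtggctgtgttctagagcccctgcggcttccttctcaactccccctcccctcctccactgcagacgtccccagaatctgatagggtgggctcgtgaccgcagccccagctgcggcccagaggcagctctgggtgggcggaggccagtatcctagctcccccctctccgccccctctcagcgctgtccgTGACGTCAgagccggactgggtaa
Th: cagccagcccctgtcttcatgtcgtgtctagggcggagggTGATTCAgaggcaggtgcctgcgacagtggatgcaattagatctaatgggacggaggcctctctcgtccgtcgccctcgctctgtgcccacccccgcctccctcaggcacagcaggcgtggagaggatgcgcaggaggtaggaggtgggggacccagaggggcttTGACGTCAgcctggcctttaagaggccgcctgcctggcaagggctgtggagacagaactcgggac
Gch1: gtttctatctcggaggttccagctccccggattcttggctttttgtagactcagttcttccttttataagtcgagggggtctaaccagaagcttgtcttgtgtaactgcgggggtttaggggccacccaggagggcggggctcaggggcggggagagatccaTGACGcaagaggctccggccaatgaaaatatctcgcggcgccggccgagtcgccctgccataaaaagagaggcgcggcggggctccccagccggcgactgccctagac
Spr: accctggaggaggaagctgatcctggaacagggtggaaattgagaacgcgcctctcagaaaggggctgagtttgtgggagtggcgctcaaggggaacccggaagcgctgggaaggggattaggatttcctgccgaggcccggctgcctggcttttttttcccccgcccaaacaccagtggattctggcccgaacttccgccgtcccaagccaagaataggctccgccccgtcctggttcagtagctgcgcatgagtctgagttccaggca

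TGACGTCA stands in the promoters of Th, where it starts 45 bases before the gene's start, and of Slc18a2, where it starts 4 bases before it. These were the members with a ratio of at least 1.5 in the N2a-Mn library. Of the 8 members found in the promoter table, whose windows of 300 bases reach 50 bases past the start, these 2 held it. Over all 32851 windows of the same length 588 held it, which is 1.79%. That share counts windows, of measured and unmeasured genes alike. Counted by gene, 356 of the 9321 measured genes with a window held it, a larger share. The shorter core TGACG, searched on both strands and contained in every TGACGTCA, was found in 20.8% of windows. Of those 9321 genes, 3370 held it. Gch1 held it at 88, Dbh at 222 and Maoa at 209 bases before the start. TGANTCA, also searched on both strands, was found in 7.81% of windows and in 546 of the 9321 genes. It stands 210 bases before the start of Th and in 1 of the 2 windows of Ddc. The windows of Spr and Pts held none of the 3 motifs. Of the 31 other genes of the pathway considered below, 20 had a window, and Chgb and Scg2 held TGACGTCA, 72 and 68 bases before their starts. Among 9321 measured genes with a window, 21.2% were at least 1.5-fold higher in the N2a-Mn library, and among the 356 whose window held TGACGTCA 27.5% were. The share was 21.4% for windows with TGACG and 25.3% for windows with TGANTCA, and no difference between these shares was tested. The motifs were chosen after the ratios were seen. These matches describe letters in a window, and no binding was measured.

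Before the members are taken in turn, the labelled cell type was checked against marker genes. Of 8 sympathoadrenal transcription factors, 7 had at least 20 reads over both libraries, with 8627 reads in all in the N2a-Mn library and 8225 in the N2a library. All 5 neuronal markers were measured. Cholinergic markers had 2 and 0 reads in all in the N2a-Mn and N2a libraries, with Slc18a3 and Slc5a7 at 0 in both. Glial markers had 19 and 15 reads, fibroblast markers 58 and 50, and immune markers 8 and 3, with Sox10, S100b, Ptprc and Aif1 at 0 in both. Summed over its list, each of these 3 kinds was below 1 FPKM in both libraries, where FPKM is the authors' level per length of transcript and size of library.

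Th had 173 reads in the N2a-Mn library, or 11.8 CPM [10.1 to 13.7], reads per 1000000 reads assigned to genes, and 88 reads in the N2a library, or 6.30 [5.05 to 7.76]. The log2 ratio was 0.91 [0.53 to 1.30]. Genes were called measured when their reads in the pair of libraries summed to 20 or more, and 9.33% of the 11872 measured genes had a higher ratio than Th. The middle measured gene had a log2 ratio of 0.18 when reads were divided by column totals, and a gene's ratio is best set against that value. With the libraries scaled by their median ratio, which sets the middle gene to 0, Th was at 0.72.

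Ddc, the next enzyme, had 6 reads in the N2a-Mn library and 4 in the N2a library. The ratio of 1.38 has an interval from 0.34 to 6.91, so a difference in either direction was not detectable at this depth. A pair of RefSeq gene models without assigned function overlaps Ddc in GRCm38.p6, and the labels do not say whether reads were counted by strand.

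Dbh had 247 reads in the N2a-Mn library and 250 in the N2a library, or 16.9 and 17.9 CPM. Its log2 ratio was -0.08 [-0.34 to 0.18] with column totals and -0.26 [-0.52 to -0.004] with median-ratio scaling. The interval with column totals includes no change. The reads of Th per read of Dbh were 0.70 in the N2a-Mn library and 0.35 in the N2a library, a change of 1.99 times [1.44 to 2.75]. Such a ratio within a library does not depend on how the libraries are scaled.

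Gch1, which catalyses the first and rate-limiting step of tetrahydrobiopterin synthesis, had 4790 reads in the N2a-Mn library and 3784 in the N2a library, or 327.9 and 270.8 CPM. The log2 ratio was 0.28 [0.21 to 0.34] with column totals, near the 0.18 of the middle gene, and 0.09 with median-ratio scaling. A RefSeq model, Gm18811, overlaps Gch1. Pts, the second enzyme, had 52 reads in the N2a-Mn library and 61 in the N2a library, a log2 ratio of -0.29 [-0.86 to 0.26]. In the authors' deposited table, whose fold changes are ratios of FPKM values, Pts is at -0.48.

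Spr, which completes the cofactor, was the member with the lowest ratio. It had 382 reads in the N2a-Mn library, or 26.2 CPM [23.6 to 28.9], and 662 in the N2a library, or 47.4 [43.8 to 51.1]. The log2 ratio was -0.86 [-1.04 to -0.67], and 2.43% of measured genes had a lower one. With median-ratio scaling it was -1.04. The first and the last enzyme of the cofactor thus stood on opposite sides of no change with column totals, though Gch1 lay near the middle gene. Spr had 0.080 reads per read of Gch1 in the N2a-Mn library and 0.17 in the N2a library, a change of 0.46 times [0.40 to 0.52]. For Pts per read of Gch1 the change was 0.67 times [0.45 to 0.99], and for Spr per read of Pts 0.68 times [0.45 to 1.02].

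Slc18a2 was the member with the highest ratio. It had 74 reads in the N2a-Mn library, or 5.07 CPM [3.98 to 6.36], and 26 in the N2a library, or 1.86 [1.22 to 2.73]. The log2 ratio was 1.43 [0.78 to 2.15], or 1.24 with median-ratio scaling, and 2.91% of measured genes had a higher one. Slc18a1, the vesicular monoamine transporter of chromaffin granules, had 26 reads in the N2a-Mn library and 24 in the N2a library. The reads of Slc18a2 per read of Slc18a1 were 2.85 in the N2a-Mn library and 1.08 in the N2a library, a change of 2.63 times [1.21 to 5.68]. The reads of Slc18a2 per read of Th changed by 1.45 times [0.84 to 2.53], which includes no change.

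Slc6a2, the noradrenaline transporter, had 0 reads in both libraries. A count of 0 allows a share of up to 2.05e-05% of the reads in the N2a-Mn library and 2.15e-05% in the N2a library, the share of 3 counts. Maoa had 1 read in the N2a-Mn library and 0 in the N2a library. No fold is given for either gene. The log2 fold change of 3.32 for Maoa in the authors' deposited table sets an FPKM of 0.01 against a 0 written as 0.001.

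**Figure D1:**
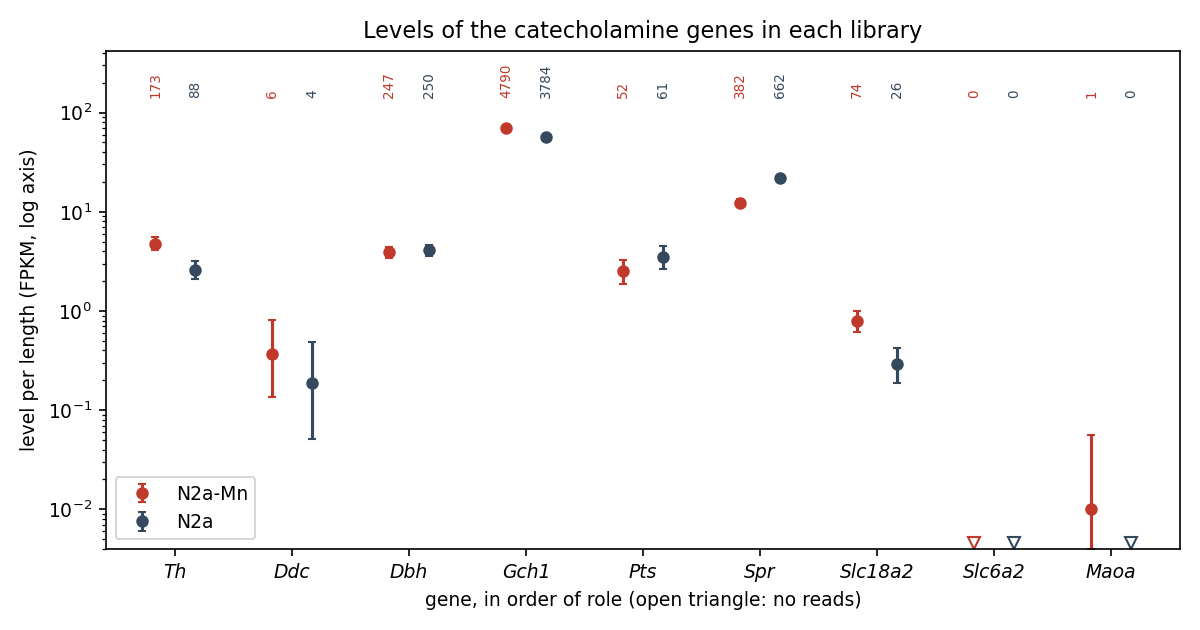
Level per length (FPKM, log axis) of the 9 genes in the N2a-Mn library (red, left of each pair) and the N2a library (dark, right), with 95% intervals for counting error, the read counts at the top and open triangles where there were no reads. Gch1 lies highest at 69.9 and 57.1 FPKM, Ddc, Maoa and Slc6a2 lie lowest, and Th and Slc18a2 are higher and Spr lower in the N2a-Mn library.

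Set against each other per length, the 9 genes covered a wide range, and Gch1 and Spr lay above Th in both libraries. Gch1 was at 69.9 FPKM in the N2a-Mn library and 57.1 FPKM in the N2a library, above 96.7% and 95.9% of all listed genes. Th was at 4.76 FPKM [4.08 to 5.52] in the N2a-Mn library and 2.61 FPKM [2.09 to 3.22] in the N2a library. The level of Gch1 was 14.7 times that of Th in the N2a-Mn library and 21.9 times in the N2a library. In the N2a-Mn library the order was Gch1, Spr at 12.3 FPKM, Th, Dbh at 3.92 FPKM [3.45 to 4.44], Pts at 2.50 FPKM [1.87 to 3.28], Slc18a2 at 0.79 FPKM [0.62 to 0.99], Ddc at 0.37 FPKM [0.14 to 0.81] and Maoa at 0.01 FPKM. The intervals of Th and Dbh overlapped there, as did those of Slc18a2 and Ddc. In the N2a library the order was Gch1, Spr at 21.7 FPKM, Dbh at 4.10 FPKM [3.61 to 4.64], Pts at 3.48 FPKM [2.66 to 4.47], Th, Slc18a2 at 0.29 FPKM [0.19 to 0.42] and Ddc at 0.19 FPKM [0.052 to 0.49]. The intervals of Dbh and Pts overlapped there, as did those of Pts and Th and those of Slc18a2 and Ddc, while those of Dbh and Th did not. Th therefore stood in the third place with manganese and in the fifth without it. The lengths that reads and FPKM together imply were 1424 bases in the N2a-Mn library and 1255 in the N2a library for Pts, and 1110 and 1507 for Ddc, so that the FPKM of these 2 genes also depends on which transcripts the authors' estimate used.

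By role, the 3 genes of tetrahydrobiopterin supply took 5224 reads in the N2a-Mn library and 4507 in the N2a library, which were 91.2% and 92.5% of the reads of all members. Their share of all reads was 0.0358% [0.0348 to 0.0367] in the N2a-Mn library and 0.0323% [0.0313 to 0.0332] in the N2a library. Th, Ddc and Dbh together took 426 reads and 342 reads, or 0.00292% [0.00265 to 0.00321] in the N2a-Mn library and 0.00245% [0.00220 to 0.00272] in the N2a library. The summed share of the cofactor genes joins unlike parts. With column totals Gch1 was at a log2 ratio of 0.28, near the 0.18 of the middle gene, while Spr was at -0.86. The summed shares also depend on the scale. The log2 ratio of the summed cofactor genes was 0.15 with column totals and -0.034 with median-ratio scaling. For Th, Ddc and Dbh together it was 0.25 and 0.070. The intervals here are exact binomial.

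**Figure D2:**
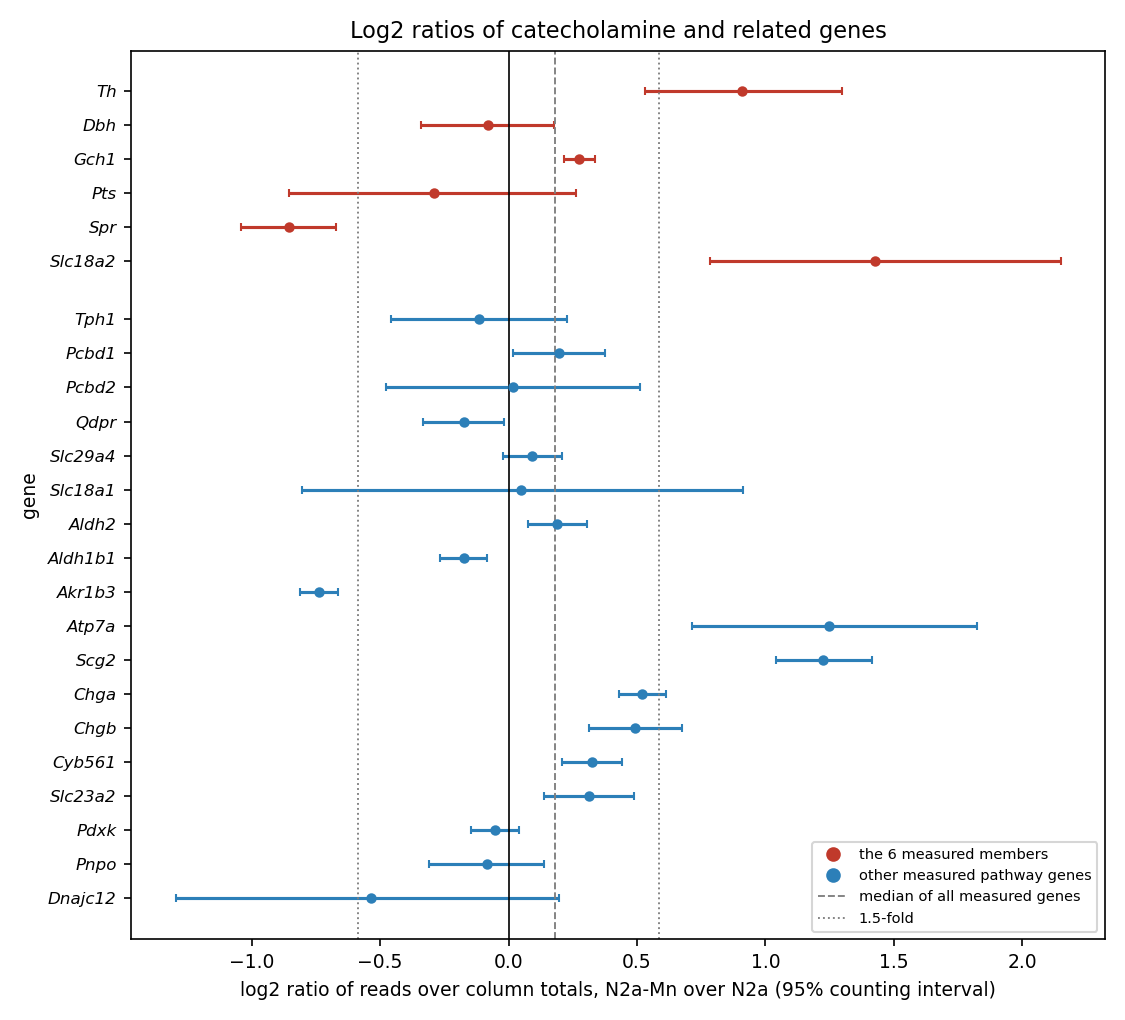
Log2 ratio of reads over column totals, N2a-Mn over N2a, for the 6 measured members (red) and 18 other measured genes of the pathway (blue), grouped by role, with 95% counting intervals. Slc18a2 at 1.43, Th at 0.91 and Spr at -0.86 lie past the dotted 1.5-fold lines, and the dashed line marks the median of all measured genes at 0.18.

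Of the 9 members 6 were measured, and 2 of them were higher in the N2a-Mn library by 1.5-fold or more, while 1 was lower by as much. The same holds for 21.6% of all measured genes on the higher side and 5.97% on the lower side. With median-ratio scaling the members gave the same counts of 2 and 1, and the shares over all measured genes were 13.4% and 11.3%. At 2-fold, Slc18a2 was the 1 member on the higher side and 0 were on the lower side, beside 7.26% and 1.69% of all measured genes. The median log2 ratio of the 6 was 0.10, against 0.18 over all measured genes, with 3 members above 0 and 3 below. The counts of all 9 members were whole in both libraries, whereas 13.3% of all genes had fractional estimates in one library or both.

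**Figure D3:**
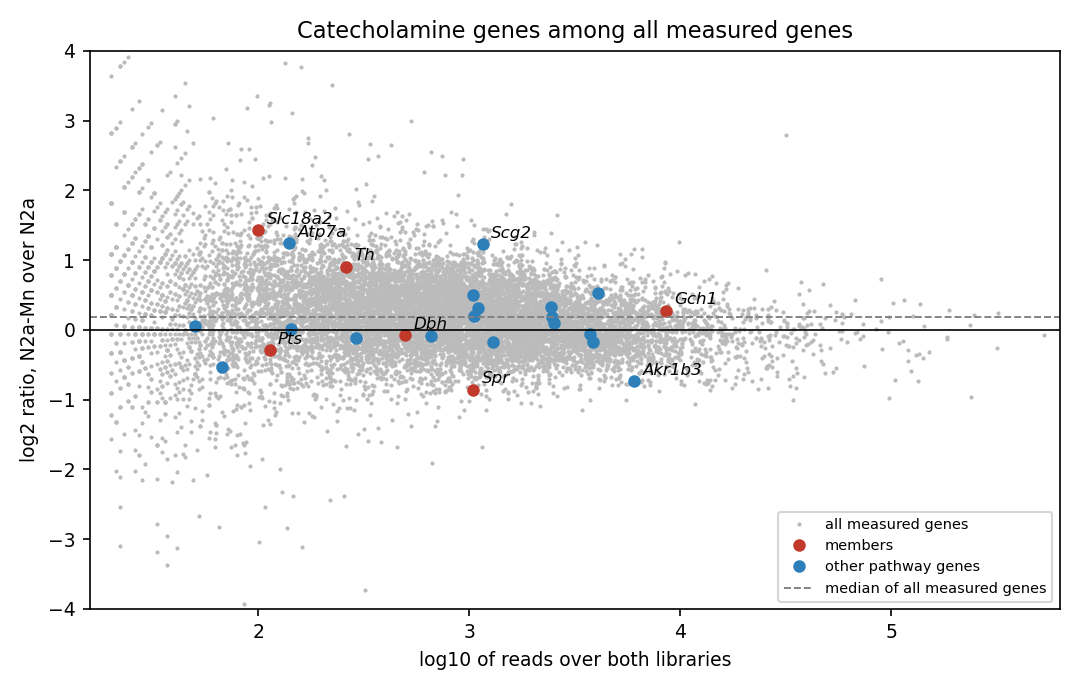
Log2 ratio (N2a-Mn over N2a) against the log10 of reads over both libraries for all 11872 measured genes (grey; 48 lie beyond a log2 ratio of 4 in either direction and are not drawn), with members in red and other pathway genes in blue. Over all measured genes, 2.91% had a higher ratio than Slc18a2, 9.33% a higher one than Th and 2.43% a lower one than Spr. Ranks among genes of like depth were not computed. Gch1 and Dbh lie within the cloud.

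The rest of the pathway was described with 31 further genes in 5 groups, of which 20 were measured. At least 1.5-fold higher were 2 of the 20, Scg2 and Atp7a, beside 21.6% of all measured genes. At least 1.5-fold lower were 2, among them Akr1b3, beside 5.97% of all measured genes. The median log2 ratio of the 20 was 0.04, against 0.18 over all measured genes. Both genes on the higher side belong to the partners of granules and cofactors.

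Among those partners, Scg2, a secretogranin of dense-core vesicles, had 820 reads in the N2a-Mn library and 335 in the N2a library, a log2 ratio of 1.23 [1.04 to 1.42]. Chga, chromogranin A of the same granules and the most abundant gene of this group, had 2451 reads in the N2a-Mn library and 1634 in the N2a library, at 0.52 [0.43 to 0.61]. Chgb, chromogranin B, was at 0.49 [0.31 to 0.67] with fractional counts, and Cyb561, the cytochrome that supplies Dbh with electrons from ascorbate, at 0.33 [0.21 to 0.44]. Atp7a, the copper pump that supplies the secretory pathway and so the copper enzyme Dbh, had 100 reads in the N2a-Mn library and 40 in the N2a library, at 1.25 [0.72 to 1.82]. In the authors' deposited table it is at 0.47, and the implied length of its transcripts was 8248 bases in the N2a-Mn library and 4771 in the N2a library. Dnajc12, a co-chaperone of the aromatic amino acid hydroxylases, had 28 reads in the N2a-Mn library and 39 in the N2a library, at -0.53 [-1.30 to 0.20]. The authors' deposited table gives it as -1.17.

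Tetrahydrobiopterin that Th has oxidised is recycled by Pcbd1 and Qdpr. Qdpr, the gene of this group with most reads, had 624 reads in the N2a-Mn library and 674 in the N2a library, a log2 ratio of -0.18 [-0.33 to -0.02]. Per length Pcbd1 was higher than Qdpr in the N2a-Mn library, at 29.3 and 22.7 FPKM, and near it in the N2a library, at 25.3 and 25.7 FPKM. Gchfr, whose protein inhibits or stimulates Gch1 according to the metabolites present, had 16 reads in the N2a-Mn library and 0 in the N2a library. Set against a floor of 3 counts in the N2a library, the ratio was 5.10, which leaves out the counting error of the 16 reads. The estimate of 16.33 was also fractional and under the minimum of 20 reads.

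Breakdown was represented by other enzymes than monoamine oxidase. Maob, the second monoamine oxidase, had 0 reads in both libraries, as had Aldh1a1 and Sult1a1. Akr1b3, an aldose reductase that can reduce the aldehydes left by monoamine oxidase and the most abundant gene of this group, had 2336 reads in the N2a-Mn library and 3729 in the N2a library, at -0.74 [-0.81 to -0.66]. It can also take part in alternative routes to tetrahydrobiopterin.

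Of the other transporters, Slc29a4, a low-affinity plasma membrane monoamine transporter, was the most abundant, with 1328 reads in the N2a-Mn library and 1191 in the N2a library and a log2 ratio of 0.09 [-0.02 to 0.21]. The dopamine transporter Slc6a3, the serotonin transporter Slc6a4 and Slc22a3 had 0 reads in both libraries, like Slc6a2. Of the enzymes for other monoamines, Tph1, the hydroxylase of serotonin synthesis that uses the same cofactor as Th, was the one measured. It had 142 reads in the N2a-Mn library and 147 in the N2a library, at -0.11 [-0.46 to 0.23]. The reads of Th per read of Tph1 were 1.22 in the N2a-Mn library and 0.60 in the N2a library, a change of 2.04 times [1.42 to 2.92]. Pnmt, which makes adrenaline, and Tph2 had 0 reads in both libraries.

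**Figure D4:**
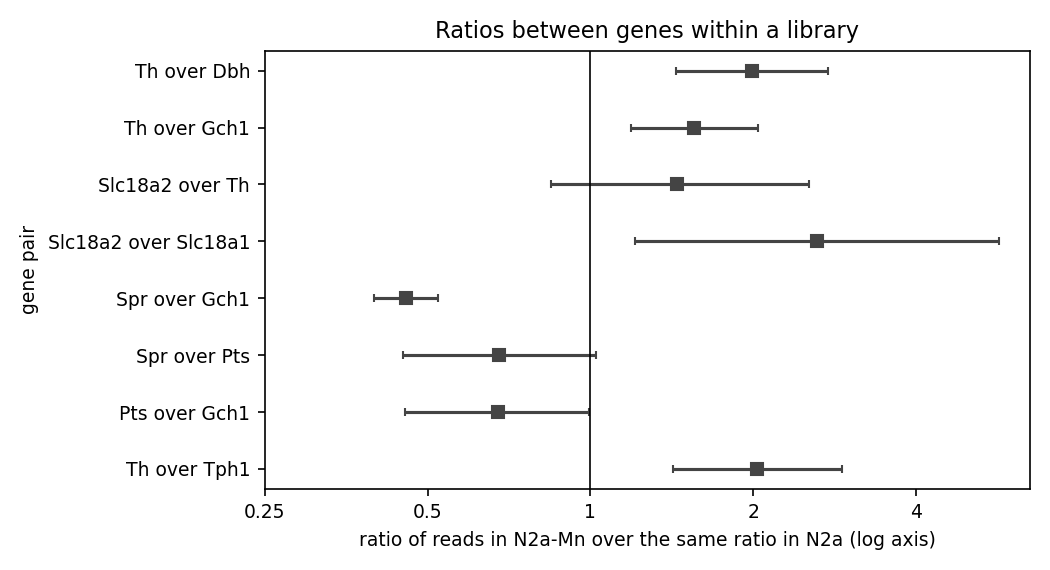
Ratio of the reads of 2 genes in the N2a-Mn library over the same ratio in the N2a library (log axis), with exact conditional 95% intervals for counting error; the pairs were chosen after their values were seen. Th over Dbh (1.99), Th over Tph1 (2.04) and Slc18a2 over Slc18a1 (2.63) lie above 1, Spr over Gch1 (0.46) lies below 1, and the intervals of Slc18a2 over Th and of Spr over Pts include 1.

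Among 2253 circular RNAs recognised in the same total RNA libraries by back-splice junction reads, 0 had a member as host gene, and 0 had one of the 31 other genes of the pathway. The share of all genes that host a circular RNA was not computed. The 2253 circular RNAs are few beside the 22287 listed genes, so these counts are not read as a trait of the pathway.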

How the data were processed

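The authors deposited a table of estimated counts and of FPKM values per gene for the total RNA libraries, with log2 fold changes and with p-values and adjusted p-values that are not used here. The authors' log2 values are ratios of FPKM with 0 written as 0.001. Whole counts of circRNA junction reads come from a second deposited table. The tools named in the submitters' processing notes are StringTie, Bowtie2 and fastp 0.18.0, with mm9 as build. The counting program and the annotation were not given in the sources used here.

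Estimated counts were rounded and divided by column totals, with 0.5 reads added for log2 ratios. Intervals are exact conditional binomial (Clopper-Pearson) for ratios and exact Poisson for levels. A gene was measured when its reads in both libraries summed to 20 or more, and counted at 1.5-fold. Alternatives were median-ratio, TMM (edgeR 4.0.16) and upper-quartile scaling, a pseudocount of 1, unrounded counts, other minimums, 2-fold, and the deposited ratios. The ratio step was tested on simulated Poisson counts, with changes placed only in genes with many reads. These counts hold no spread between libraries and no PCR copies, so the simulation covers counting error alone. Python 3.11.15 and scipy 1.17.1 were used. Members and lists were chosen with earlier results of these data known. Named genes are all members, the gene with most reads in each group and other measured pathway genes past 1.5-fold. Not all of the latter are reported here. Others named (such as Chgb, Dnajc12 and Gchfr), the promoter of Gch1, the motifs and the gene pairs were chosen after values were seen. The promoter table gave 8 of 9 members by symbol. Columns left without a library were 0. Values of some genes of the lists are not reported here.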

Additional observations from a re-analysis of the deposited data

How the results depend on the processing

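Slc18a2 and Th stayed at least 1.5-fold higher and Spr at least 1.5-fold lower in the N2a-Mn library with median-ratio, TMM and upper-quartile scaling, with a pseudocount of 1, with unrounded counts and with the authors' deposited FPKM ratios. The log2 ratio of Gch1 was 0.28 with column totals, 0.094 with median-ratio, 0.10 with TMM and 0.12 with upper-quartile scaling, since these scales lower every gene by 0.16 to 0.18. The same scale moved the summed cofactor genes to -0.034 and all members together to -0.015. At 2-fold, 1 member was higher and 0 were lower, and 0 other pathway genes were lower. With no minimum of reads 3 members in place of 2 were higher, Maoa with its 1 read in addition, and 4 other pathway genes were higher, Gchfr among them, at 0 reads in the N2a library. With the authors' deposited ratios 1 was higher. In the other direction, 3 other pathway genes in place of 2 were lower with each of the 3 other scalings and with the deposited ratios. The order per length could not be recomputed from a transcript length, since the table used here holds none. Lengths implied by FPKM, an alternative chosen after seeing the data, gave the same order. Those lengths are derived from the reads and the FPKM themselves, so they are no independent check of the order. No paired analysis was possible because each group had 1 library, and for the same reason no library could be left out. The reads of Ddc, Maoa and Slc6a2 limit any statement on them.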

Other observations

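In the wider annotation of the deposited mRNA table, 39 genes carry tyrosine metabolism, and 17 of them were measured. Their median log2 ratio was -0.08, with 2 at least 1.5-fold higher in the N2a-Mn library and 1 lower, beside 21.6% and 5.97% of all measured genes. Lower was Aldh3a1, an aldehyde dehydrogenase, with 35 reads in the N2a-Mn library and 72 in the N2a library, a log2 ratio of -1.09 [-1.73 to -0.50].

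Folate biosynthesis, the annotation that holds Gch1, Pts and Spr, has 26 genes, of which 20 were measured, with a median log2 ratio of 0.07, 4 at least 1.5-fold higher and 4 lower, beside the same 21.6% and 5.97%, so the share on the higher side was near that of all genes. Fpgs, which adds glutamates to folates, had 1352 reads in the N2a-Mn library and 2018 in the N2a library, at -0.64 [-0.74 to -0.54], with Spr and Akr1b3 also on the lower side. Higher were Th and Ggh, which removes glutamates from folates, with 47 reads in the N2a-Mn library and 26 in the N2a library, at 0.78 [0.07 to 1.54]. Also higher were Gphn and Mocs2 of molybdenum cofactor synthesis, at 0.68 [0.47 to 0.90] and 0.72 [0.41 to 1.04]. These annotations were looked up after the values of the members had been seen.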
